A study of Mus musculus with 9 samples.

Results

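The genes described are the aquaporins Aqp1, Aqp4 and Aqp7 in the heart of mice given a virus that carries the gene of oncostatin M. They are 3 of the 13192 genes in the deposited count table, taken by symbol. Their choice followed from results of the same comparison: Aqp1 was among the genes past the threshold there, and Aqp4 and Aqp7 were added as its relatives in heart muscle. The levels and differences of these 3 genes are therefore given as a description, with no test. All 3 were in the table and all 3 were kept by the filter on low counts.

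RNA came from the apex of the heart of male wild-type C57BL/6J mice. At 10 weeks of age the mice received 1e+11 particles of an adeno-associated virus (AAV) in the right gastrocnemius, a leg muscle, and the heart was taken 12 weeks later. AAV-Null is the control vector (4 libraries), and AAV-Osm carries the gene of oncostatin M, a cytokine of the interleukin-6 family (5 libraries). Both groups thus carried a vector, and no group without one was analysed here. The promoter of the vector is not given in the sources used here. Osm was not analysed here, so its transcript does not check the labels. Libraries held between 11841106 and 30625134 counts, so Aqp1 rests on 2486 to 10065 counts per library while Aqp4 rests on 13 to 45. The closest libraries of a group, AAV-Null 1 and AAV-Null 2, differed by a chi-square of 6.52 per degree of freedom. AAV-Osm 2 and AAV-Osm 3 differed by 9.68, and all other pairs within a group by 30.1 to 98.1. With 0 pairs identical, each library was counted as 1 sample, though this does not show that the libraries are independent. The labels do not state that each library came from a different mouse, and p-values then measure only the spread between these samples. AAV-Null 3 and AAV-Null 4 held the largest sums of liver-type transcripts (265 and 223 CPM, against 51.7 to 134 CPM in the others), and AAV-Null 4 held the largest sum of mesothelial markers. CPM is a count per 1e+06 counts of the library, scaled here by edgeR's TMM factors. All 10 cardiomyocyte markers were in the table, and their sum was between 81989 and 110425 CPM in the 9 libraries.

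Aquaporins are membrane channels that assemble as tetramers, each subunit with its own pore. AQP1 conducts water and is known for its abundance in the endothelium of continuous capillaries, in red blood cells and in the kidney, and in heart it is also found at caveolae. AQP4, the main water channel of brain astrocytes, occurs in skeletal and cardiac muscle fibres, where alpha-syntrophin, a member of the dystrophin complex, anchors it. AQP7 is an aquaglyceroporin, which passes glycerol as well as water. It is known for the release of glycerol from fat cells and its uptake by heart muscle.

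Aqp1, the water channel gene of capillary endothelium, was lower in every AAV-Osm heart than in any AAV-Null heart. It was at 378, 354, 331 and 361 CPM in AAV-Null 1 to 4. In AAV-Osm 1 to 5 it was at 194, 204, 218, 216 and 200 CPM. The groups were thus separated by a gap wider than the range of either of them. The means were 356 ± 19.6 CPM (SD, n = 4) and 206 ± 10.5 CPM (SD, n = 5). The log2 fold change of AAV-Osm over AAV-Null was -0.79 (SE 0.11), a level 1.73-fold lower under AAV-Osm. The value that led to its choice was an edgeR adjusted p of 0.0245 over all genes, and it is repeated here only as the reason for that choice.

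Over the whole table, 16 genes (0.121%) passed an edgeR adjusted p under 0.05, of which 11 were higher (0.0834%) and 5 lower (0.0379%), Aqp1 among the latter. DESeq2 called 0.41% of the genes it tested and limma-voom with quality weights 1.29% of all genes. Groups did not overlap for 2.28% of all genes in either direction, and 1.23% of all genes did not overlap and were lower in AAV-Osm. Since Aqp1 was chosen from this contrast, nothing is read from its place in these shares. It was the most abundant of the 16, with a mean of 273 CPM over all libraries, and the next was the clock output gene Dbp at 87.4 CPM. It also had the smallest fold change of the 16 by size. Of the 1321 genes with a mean of at least 100 CPM, 0 had a more negative log2 fold change than Aqp1, while 186 genes of the whole table did. The spread of Aqp1 within groups was narrow, with a coefficient of variation of 5.51% in AAV-Null and 5.07% in AAV-Osm. The median of those 1321 abundant genes was 15.3% and 16.5%. A narrow spread helps a gene pass the threshold by which Aqp1 was chosen, so nothing is read from this either. The fold change kept its size when single libraries were left out (-0.82 to -0.76). Its adjusted p did not stay under the threshold without AAV-Null 1 or 2 or without AAV-Osm 1, 2, 3 or 5, which is 6 of the 9 fits, and over all alternatives it ran from 1.57e-12 (DESeq2) to 0.128 (edgeR without AAV-Null 2).

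**Figure D1:**
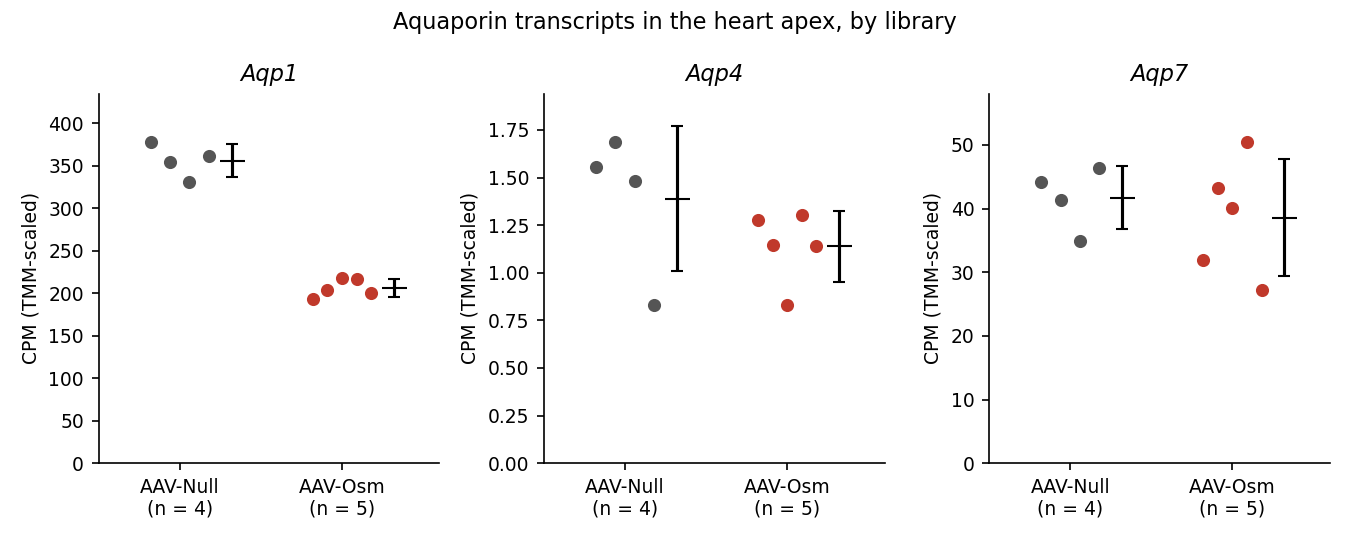
Level of each gene in CPM (y axis, from 0) in the 4 AAV-Null and 5 AAV-Osm libraries. Points are libraries, and the bar beside them is the mean with the SD. Aqp1 lay at 331 to 378 CPM under AAV-Null and 194 to 218 CPM under AAV-Osm, while the groups overlapped for Aqp4 and Aqp7.

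Aqp7, the glycerol channel gene, showed no such separation. It was at 44.2, 41.3, 35.0 and 46.3 CPM in AAV-Null 1 to 4. In AAV-Osm 1 to 5 it was at 32.0, 43.2, 40.1, 50.5 and 27.2 CPM. AAV-Osm libraries held both the highest and the 2 lowest values, so the AAV-Null range lay inside theirs. The means were 41.7 ± 4.94 CPM (SD, n = 4) and 38.6 ± 9.20 CPM (SD, n = 5), and the log2 fold change was -0.11 (SE 0.18). That value turned positive, at 0.04, when AAV-Null 4 and AAV-Osm 5 were left out together.

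Aqp4, the dystrophin-anchored water channel gene, was close to the lower edge of what the table lists. It was at 1.55, 1.69, 1.48 and 0.831 CPM in AAV-Null 1 to 4. In AAV-Osm 1 to 5 it was at 1.28, 1.14, 0.833, 1.31 and 1.14 CPM. AAV-Null 1 to 3 lay above all AAV-Osm libraries, but AAV-Null 4 held the lowest value of all 9, so the groups overlapped. The means were 1.39 ± 0.381 CPM (SD, n = 4) and 1.14 ± 0.187 CPM (SD, n = 5), with a log2 fold change of -0.29 (SE 0.26). Leaving out AAV-Null 4 gave -0.46, and leaving out that library with AAV-Null 3 gave -0.51, in both cases more than 1.5 times the value with all libraries. Leaving out AAV-Null 2 moved it the other way, to -0.18, and leaving out AAV-Osm 3 gave -0.20. Limma-voom with quality weights gave -0.48 for Aqp4. Aqp4 has 5950 bases of exon on chromosome 18, minus strand. In the GENCODE M21 annotation an antisense gene overlaps Aqp4, and the strand setting of the counting is not given in the sources used here, so its few counts cannot be assigned to the sense strand with certainty.

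Per kilobase of exon, the scale on which genes can be compared, the levels of the aquaporins spread over more than 100-fold. Aqp1 was at 129 ± 7.11 CPM per kilobase in AAV-Null (SD, n = 4) and 74.8 ± 3.79 in AAV-Osm (SD, n = 5). Aqp7 was at 16.5 ± 1.96 and 15.3 ± 3.65 CPM per kilobase, and Aqp4 at 0.233 ± 0.0641 and 0.192 ± 0.0314. By this level Aqp1 ranked 535th of all genes in AAV-Null and 837th in AAV-Osm. Aqp7 ranked 3018th and 3133rd, and Aqp4 12628th and 12820th.

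Among the other aquaporin genes fixed for comparison, Aqp8 and Aqp11 were in the table (2 of 9 listed), and neither passed edgeR's test. Aqp8, whose product also passes hydrogen peroxide, was at 5.24 ± 0.951 CPM per kilobase in AAV-Null (SD, n = 4) and 6.23 ± 2.13 in AAV-Osm (SD, n = 5). On the CPM scale its AAV-Osm libraries ran from 5.34 to 14.1, on both sides of the AAV-Null range of 5.92 to 9.35. Aqp11, a channel of the endoplasmic reticulum, was at 0.550 ± 0.0716 and 0.529 ± 0.229 CPM per kilobase, on 4 to 27 counts per library. Their log2 fold changes were 0.24 (SE 0.24 and adjusted p = 0.955 in edgeR) and 0.01 (SE 0.32 and adjusted p = 0.999 in edgeR). The sign of both depended on the processing. The order Aqp1, Aqp7, Aqp8, Aqp11, Aqp4 per kilobase was the same in 9 of 9 libraries. No gene's range over the libraries overlapped that of its neighbour in this order within a group. Aqp1 made up 84.5% to 85.7% of the summed level of the 5 genes in AAV-Null and 74.6% to 80.2% in AAV-Osm. The sum itself ran from 140 to 161 CPM per kilobase in AAV-Null and from 87.4 to 105 in AAV-Osm.

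**Figure D2:**
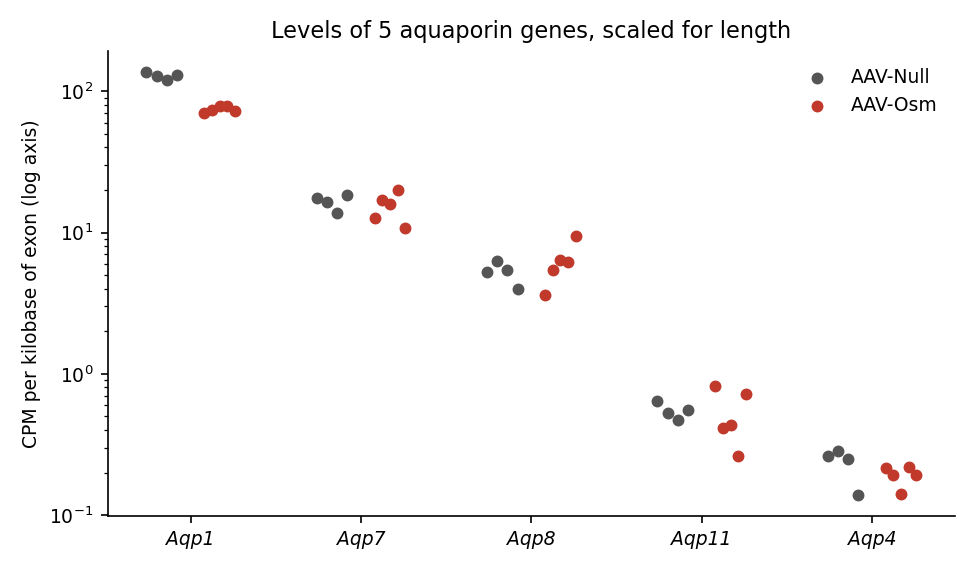
Level of 5 aquaporin genes in CPM per kilobase of exon (log y axis). Each point is a library, in grey for AAV-Null and red for AAV-Osm. The genes keep the same order in both groups, and Aqp1, at 129 and 74.8 on average, is the gene whose groups stand apart.

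Aqp1 lies on chromosome 6 at 55336299 to 55348555 (mm10, plus strand) with 2760 bases of exon, and GENCODE M21 gives it 1 transcript of 4 exons. The nearest gene of the table within 100 kb was Fam188b, 16077 bases away on the same strand. It was at 4.98 CPM under AAV-Null and 4.65 CPM under AAV-Osm on average, with a log2 fold change of -0.10 (SE 0.22 and adjusted p = 0.983 in edgeR). Aqp7 lies on chromosome 4 at 41033074 to 41048136 (mm10, minus strand), with 2524 bases of exon. Of its 5 neighbours within 100 kb, the nearest was Nfx1, 7082 bases away, with a log2 fold change of 0.24 (SE 0.15 and adjusted p = 0.923 in edgeR). No other gene of GENCODE M21 overlaps Aqp1 or Aqp7.

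The 250 bases before the transcript start of Aqp1 and Aqp7 are shown because these 2 abundant channel genes lay apart in the comparison: the groups were separated for the former and overlapped for the latter. They were taken from RefSeq on build GRCm38.p6, 5′ to 3′ on the gene's strand, at the start that the deposited table also uses. No window was taken for Aqp4. The windows are chr6:55336049-55336298 (plus strand) and chr4:41048137-41048386 (minus strand). Capitals mark motif matches.
Aqp1: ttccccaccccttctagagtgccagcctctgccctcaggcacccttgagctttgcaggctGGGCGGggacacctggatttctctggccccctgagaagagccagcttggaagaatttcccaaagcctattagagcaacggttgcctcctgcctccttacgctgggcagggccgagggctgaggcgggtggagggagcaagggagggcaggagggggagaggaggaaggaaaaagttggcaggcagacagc
Aqp7: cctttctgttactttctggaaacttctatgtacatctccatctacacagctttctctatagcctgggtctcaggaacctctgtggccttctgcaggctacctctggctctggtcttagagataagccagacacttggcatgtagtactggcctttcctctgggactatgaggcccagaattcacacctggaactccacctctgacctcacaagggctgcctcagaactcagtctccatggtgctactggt
Searched on both strands were the STAT element TTCNNNGAA, which the transcription factors downstream of gp130 cytokine receptors bind, the GC box GGGCGG, the E-box CACGTG, the ETS core CCGGAA and the TATA box TATAAA. With 1 match in all, no motif overlapped another. The Aqp1 window held it, a GC box whose first base lay 190 bases before the start, and the Aqp7 window held 0. GC boxes stood in 32.7% of all 32851 windows of this length and STAT elements in 7.02%. The E-box, ETS core and TATA box were in 6.02%, 12.0% and 12.4% of them. The absence of a match says only that these letters are not in the window. The GC content was 62% for Aqp1 and 50.8% for Aqp7.

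The summed level of endothelial genes overlapped between the groups, unlike Aqp1. All 20 pan-endothelial markers were in the table, and 0 rose and 0 fell in edgeR's test over all genes. In edgeR 1 had an unadjusted p under 0.05, against 5.97% of all genes. DESeq2 and limma-voom with quality weights called 0. The median log2 fold change of the 20 was -0.10, against 0.01 for all genes. Of the 20, 15 had a negative value and 0 had one below that of Aqp1. The groups did not overlap for 1 of them, against 2.28% of all genes in either direction and 1.23% in the lower one. It was Esam, an adhesion molecule of endothelial junctions, at 52.7 to 55.7 CPM under AAV-Null and 40.9 to 52.2 CPM under AAV-Osm (log2 fold change -0.18, SE 0.12 and adjusted p = 0.934 in edgeR). The junction genes Pecam1 and Cdh5 had log2 fold changes of -0.06 (SE 0.15 and adjusted p = 0.987 in edgeR) and -0.10 (SE 0.16 and adjusted p = 0.976 in edgeR). Both values depended on single libraries: without AAV-Osm 5 they were -0.16 for Pecam1 and -0.22 for Cdh5, and in limma-voom -0.23 and -0.28. Kdr, the receptor for vascular endothelial growth factor, had one of -0.12 (SE 0.12 and adjusted p = 0.955 in edgeR). Icam2, an adhesion molecule of resting endothelium, had the only unadjusted p under 0.05 in the list (log2 fold change -0.46, SE 0.16 and adjusted p = 0.622 in edgeR). AAV-Null 4 held 57.8 CPM of Icam2, against 38.3 to 41.5 CPM in the other AAV-Null libraries. With single libraries left out the Icam2 value ran from -0.53 to -0.31, and over all alternatives it reached -0.25. In tissue RNA, fewer cells of a type and less RNA per cell cannot be told apart.

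The summed endothelial markers were at 1382 to 1844 CPM under AAV-Null and 1326 to 1470 CPM under AAV-Osm, and the groups overlapped. Taken as a share of that sum, Aqp1 was at 25.3%, 25.6%, 23.9% and 19.6% in AAV-Null 1 to 4 and at 13.6%, 15.4%, 14.8%, 14.9% and 15.1% in AAV-Osm 1 to 5. The ratio of Aqp1 to Pecam1 in CPM was 2.99 ± 0.0416 in AAV-Null (SD, n = 4) and 1.86 ± 0.394 in AAV-Osm (SD, n = 5). Both measures kept the groups apart, as did the ratios to Cdh5 and Kdr. Aqp7 was at 2.51% to 2.99% of the endothelial sum in AAV-Null and 2.04% to 3.48% in AAV-Osm, and overlapped. The ratio of Aqp1 to Aqp7 was 7.80 to 9.47 in AAV-Null and 4.29 to 7.37 in AAV-Osm, which did not overlap. These ratios use the contrast that chose Aqp1 and carry no test.

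**Figure D3:**
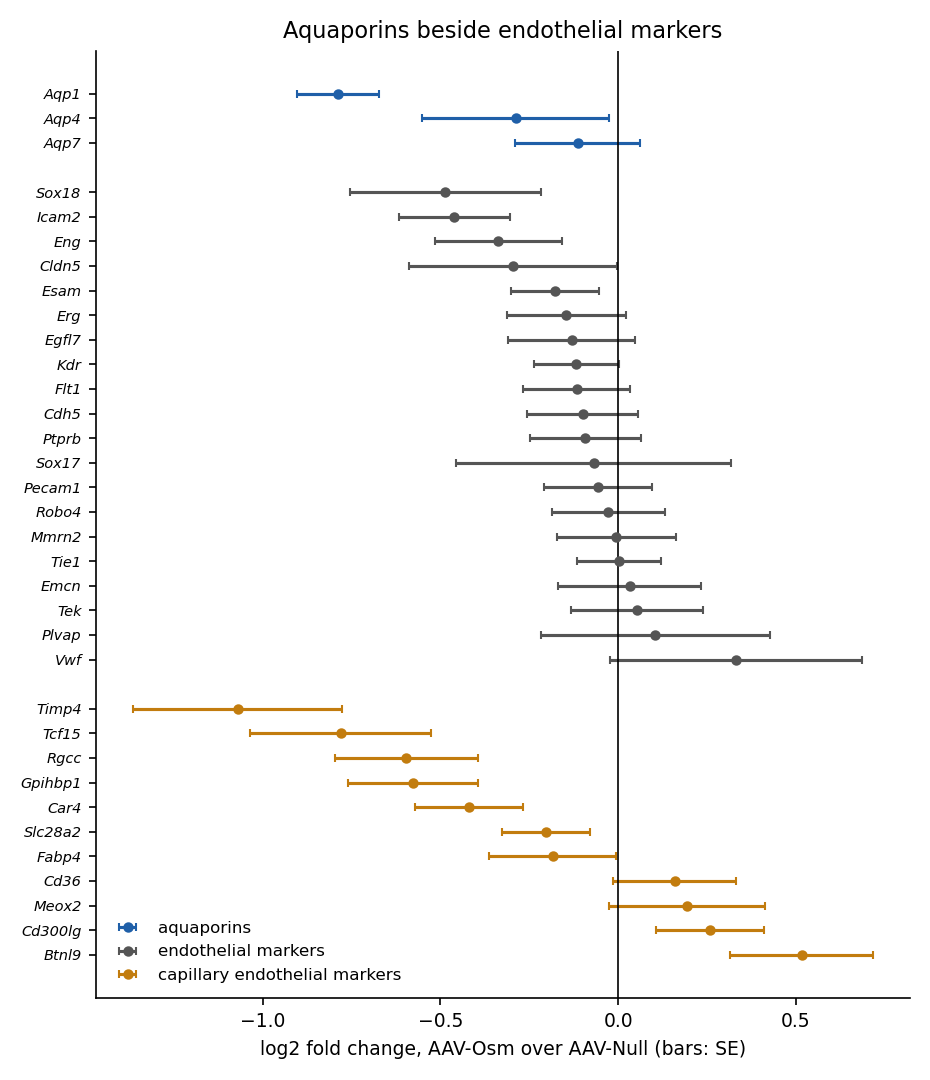
Log2 fold change of AAV-Osm over AAV-Null (x axis, bars are the SE) for the 3 aquaporins, the 20 endothelial markers and the capillary endothelial markers that are not among those 20. Aqp1, at -0.79, lies below each of the 20 endothelial markers, and 1 capillary marker, Timp4, lies further down.

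Markers of capillary endothelium, the vessel type in which AQP1 is best known, were more mixed. Of 12 listed and tested, 0 rose and 0 fell in edgeR over all genes, and 0 passed in DESeq2. In limma-voom with quality weights 2 passed, Rgcc and Tcf15, both lower. At an unadjusted p under 0.05 edgeR gave 5 lower and 1 higher, where 5.97% of all genes had such a p in either direction and 3.09% in the lower one. The median of the list was -0.19 on the log2 fold change scale, with 8 negative and 4 positive values. The 1 higher was Btnl9 (log2 fold change 0.52, SE 0.20 and adjusted p = 0.740 in edgeR). The other positive values were those of Cd300lg (0.26), Meox2 (0.19) and Cd36 (0.16). Timp4, an inhibitor of matrix metalloproteinases, had the lowest value (log2 fold change -1.07, SE 0.29 and adjusted p = 0.475 in edgeR), which was -0.56 without AAV-Null 3 and AAV-Null 4. Tcf15, a transcription factor of heart capillaries, and Rgcc, a cell cycle regulator, had log2 fold changes of -0.78 (SE 0.25 and adjusted p = 0.579 in edgeR) and -0.60 (SE 0.20 and adjusted p = 0.622 in edgeR). Gpihbp1, which holds lipoprotein lipase at the capillary wall, was at 90.5 to 151 CPM under AAV-Null and 53.9 to 88.9 CPM under AAV-Osm, without overlap (log2 fold change -0.58, SE 0.18 and adjusted p = 0.579 in edgeR). The highest Gpihbp1 level was that of AAV-Null 4, and without this library the log2 fold change was -0.37, or -0.28 with AAV-Osm 5 left out as well. The summed level of the 12 was 1742 to 2066 CPM under AAV-Null and 1501 to 2248 CPM under AAV-Osm. Most of it was Cd36 and Fabp4, at means of 876 and 661 CPM under AAV-Null and 978 and 581 CPM under AAV-Osm. The sum thus says little about the other members of the list. AAV-Osm 1 and AAV-Osm 5 had the highest sums of all 9 libraries and the lowest Aqp1.

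Markers of other cells known to carry AQP1 were measured beside it. Red cell genes were represented by 6 of 12 listed, with the globin genes not analysed here, and 0 of 6 passed or had an unadjusted p under 0.05 in edgeR (0 in DESeq2 and limma-voom). Their sum was 244 to 406 CPM under AAV-Null and 202 to 403 CPM under AAV-Osm. Mesothelial markers, genes of the outer lining of the heart, had negative log2 fold changes in 9 of 9 tested, with a median of -1.16. None of the 9 passed in edgeR, DESeq2 or limma-voom, and 6 had an unadjusted p under 0.05 in edgeR, all lower, against 3.09% of all genes in that direction. Krt19, a keratin, was at 5.01 to 19.1 CPM under AAV-Null and 0.665 to 4.38 CPM under AAV-Osm (log2 fold change -1.73, SE 0.47 and adjusted p = 0.468 in edgeR). Without AAV-Null 3 and AAV-Null 4 the Krt19 value was -0.77. The mesothelial sum was 51.7, 49.1, 66.8 and 149 CPM in AAV-Null 1 to 4. In AAV-Osm 1 to 5 it was 43.5, 30.5, 52.0, 27.6 and 11.2 CPM. AAV-Null 4 held more than 2 times the mesothelial sum of any other library. The groups overlapped in this sum only through AAV-Osm 3. The part of mesothelial or red cell RNA in the difference in Aqp1 was not tested.

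**Figure D4:**
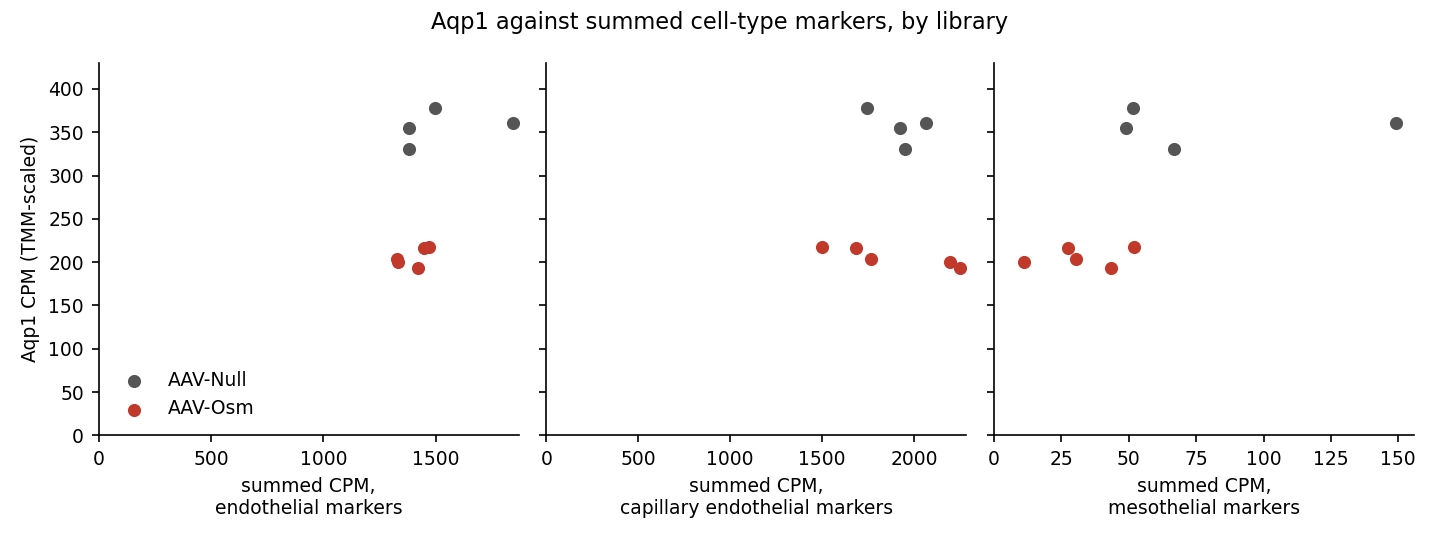
Aqp1 in CPM (y axis, from 0) against the summed CPM of endothelial, capillary endothelial and mesothelial markers (x axes) in each library. The AAV-Osm libraries lie at 194 to 218 CPM of Aqp1 and the AAV-Null libraries at 331 to 378 CPM. The AAV-Osm libraries span the whole width of the capillary sum, most of which is Cd36 and Fabp4. They lie in the lower part of the endothelial and mesothelial sums.

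Of the remaining cell types, 0 markers passed in edgeR or DESeq2. In limma-voom 1 did, Lyve1 of the lymphatic and endocardial list (log2 fold change -0.76 there). That list had 4 negative and 4 positive values in edgeR. Its other lymphatic genes were at 0.14 (Prox1), 0.05 (Flt4), 0.18 (Mmrn1) and -0.22 (Pdpn). The lists were cardiomyocyte (10 tested), mural (10), fibroblast (10), macrophage (10), lymphatic and endocardial (8), adipocyte (4) and liver (10). Unadjusted p under 0.05 were found in edgeR for 1 fibroblast, 1 lymphatic and endocardial and 1 liver gene, and for 0 of the other lists. Of all genes, 5.97% had such a p. The median log2 fold changes were 0.10, -0.04, -0.26, -0.08, -0.09, 0.22 and -1.12 in that order. Adipoq and Plin1, defining genes of fat cells and relevant to Aqp7, were not analysed here. The summed level of the 4 adipocyte genes in the table was 186 to 198 CPM under AAV-Null and 194 to 262 CPM under AAV-Osm.

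Genes that work with these channels were described from 4 further lists. In the dystrophin complex, which anchors AQP4 at the muscle membrane, 13 of 15 listed genes were tested. None rose or fell in edgeR, DESeq2 or limma-voom, and 0 had an unadjusted p under 0.05 in edgeR. The median log2 fold change was 0.05. Per length the most abundant were Sspn (sarcospan) and Sgca (alpha-sarcoglycan), with log2 fold changes of 0.14 (SE 0.14 and adjusted p = 0.953 in edgeR) and -0.09 (SE 0.17 and adjusted p = 0.981 in edgeR).

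For AQP7, 22 of 26 listed genes of glycerol and glycerolipid handling were tested, and 0 rose and 0 fell in edgeR over all genes. DESeq2 called 0 and limma-voom with quality weights called 1, Gpam, higher. The median of the list was -0.01 on the log2 fold change scale, and 4 members (3 higher and 1 lower, Gpihbp1) had an unadjusted p under 0.05 in edgeR, against 5.97% of all genes. Gpam, the mitochondrial enzyme that adds the first acyl group to glycerol-3-phosphate, was at 18.7 ± 1.84 CPM in AAV-Null (SD, n = 4) and 30.0 ± 7.80 CPM under AAV-Osm (SD, n = 5), with a log2 fold change of 0.68 (SE 0.19 and adjusted p = 0.468 in edgeR). Lipe, hormone-sensitive lipase, was at 31.8 to 39.2 CPM under AAV-Null and 45.5 to 54.2 CPM under AAV-Osm, without overlap (log2 fold change 0.44, SE 0.12 and adjusted p = 0.483 in edgeR). The most abundant per length were Lpl, lipoprotein lipase, at 0.09 (SE 0.16 and adjusted p = 0.977 in edgeR) and Pnpla2, adipose triglyceride lipase, at 0.08 (SE 0.13 and adjusted p = 0.976 in edgeR) on the log2 fold change scale. Leaving out AAV-Null 3 and AAV-Null 4 turned the Lpl value to -0.03.

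Carbonic anhydrases convert carbon dioxide to bicarbonate and back, and bicarbonate transporters carry bicarbonate across cell membranes. Of 25 listed, 17 were tested, and 0 rose and 0 fell in edgeR or DESeq2, while limma-voom called 2 lower, Car7 and Car15. At an unadjusted p under 0.05 edgeR gave 4 lower and 0 higher of the 17, against 3.09% of all genes lower and 5.97% in either direction. The median log2 fold change of the 17 was -0.09. The 4 lower were Car4, Car7, Car8 and Car15, and Car4 is also counted among the lower capillary markers above. Car7, a cytosolic carbonic anhydrase, was at 6.48 to 7.86 CPM under AAV-Null and 4.23 to 5.92 CPM under AAV-Osm, without overlap (log2 fold change -0.62, SE 0.16 and adjusted p = 0.428 in edgeR). Car15 showed a log2 fold change of -1.06 (SE 0.31 and adjusted p = 0.497 in edgeR) from about 2.00 CPM in AAV-Null. The most abundant per length were the anion exchanger gene Slc4a3, at 0.06 (SE 0.15 and adjusted p = 0.987 in edgeR), and the membrane-bound Car14, at -0.11 (SE 0.14 and adjusted p = 0.969 in edgeR).

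The genes of cell volume and tonicity control had 18 of 21 listed members tested. None rose or fell in edgeR, DESeq2 or limma-voom, and 0 had an unadjusted p under 0.05 in edgeR. The median log2 fold change was 0.04. The kinase genes Wnk1 and Stk39, which act in turn on the chloride cotransporters that set cell volume, had log2 fold changes of 0.06 (SE 0.13 and adjusted p = 0.983 in edgeR) and 0.12 (SE 0.12 and adjusted p = 0.955 in edgeR).

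The patterns of the 3 genes over the libraries within each group were compared with those of other genes. The measure was Pearson's r of the deviations of log2 CPM from the group means over the 9 libraries, among genes with a mean of at least 10 CPM. This is a description: the 9 libraries share their depth and composition with every gene, and the highest of 7616 values or more are high by selection. Near to Aqp1 were Arid1b (r = 0.95), Map1b (r = 0.95), Zc3h13 (r = 0.95) and Ube4b (r = 0.95). Nearest to Aqp7 were Upf2 (r = 0.99), Ubxn4 (r = 0.98), Pcp4l1 (r = 0.98), Syt11 (r = 0.98) and Las1l (r = 0.98). Nearest to Aqp4 were 1810026B05Rik (r = 0.94), Plp2 (r = 0.94), Kcnj12 (r = 0.92), Slc16a1 (r = 0.92) and Npr2 (r = 0.92). Of the genes compared, 57 had an r above 0.9 with Aqp1, 212 with Aqp7 and 10 with Aqp4. None of these 14 genes was an endothelial marker of the lists, and 0 passed edgeR's test between the groups. Between the 3 aquaporins r was 0.72 for Aqp1 with Aqp7, -0.25 for Aqp1 with Aqp4 and -0.16 for Aqp4 with Aqp7.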

How the data were processed

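Counts per gene, not normalized, were deposited by the authors. The submitters' processing notes name STAR 2.5.2b, featureCounts and Subread 1.5.1, with build mm10. Which annotation and strand setting were used, and how reads matching several places were handled, is not given in the sources used here. In all, the table held 13192 named genes, and 4141 blank lines without values were left out. Groups came from the treatment label, and replicate numbers are names only. Members and gene lists were chosen with earlier results of these data known.

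All genes were fitted together, group as the only term, with edgeR 4.0.16 (R 4.3.3): TMM factors, robust quasi-likelihood F test, two-sided, Benjamini-Hochberg adjustment over all genes, threshold 0.05. filterByExpr removed 0 genes. Alternatives were total-count, DESeq2 and upper-quartile scaling, 3 filters, DESeq2 1.42.0, limma 3.58.1 (voom with quality weights), dispersions that are not robust, and libraries left out. The script was tested on simulated data. Named genes were all aquaporins in the table, per pathway list the members past the threshold or else the 2 most abundant per length, the 5 genes most like each member (log2 CPM, prior count 2) and neighbours within 100 kb. Genes named from the marker lists, Gpam, Lipe, Car4, Car7, Car8 and Car15 were chosen after their values were seen. Neighbours spanning over 2000000 bases were left out, a limit set after the data were seen. A gene among the 5 most like Aqp1 is not reported here.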

Additional observations from a re-analysis of the deposited data

Results flagged for a closer look

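In 106 groups of values tested for a library far from the others of its group, 6 had one, where chance gives about 1 in 20. In 5 of the 6 the library was AAV-Null 4, which was the highest of its group each time. It held 151 CPM of Gpihbp1 (the others 90.5 to 95.2), 57.8 CPM of Icam2 (38.3 to 41.5) and 56.0 CPM of Upk3b, a mesothelial gene (18.6 to 22.03). Its summed red cell markers were at 406 CPM (244 to 266), and its ratio of Aqp1 to Cdh5 was 4.68 (3.49 to 3.68). In the sixth group, AAV-Null 3 was the lowest for Sgca, at 160 CPM (187 to 190). The levels of Aqp1, Aqp4 and Aqp7 were not among these groups.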

How the results depend on the processing

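The labels name no pairing between libraries of the groups, so no paired analysis was made. Under the alternatives that gave a value, the log2 fold changes ran from -0.83 to -0.76 for Aqp1, -0.51 to -0.18 for Aqp4 and -0.23 to 0.04 for Aqp7. These shifts were smaller than the spread between replicates. Leaving out a single library can hardly move a group mean by more than that spread, so this comparison does not measure stability. Aqp4 gave no value with a mean of at least 5 CPM required. Other scalings moved the median of all genes by less than 0.1. The count of genes changed, 16 (11 higher and 5 lower), was 5 (3 and 2) with a mean of at least 5 CPM, 53 (24 and 29) in DESeq2 and 170 (79 and 91) in limma-voom. It was 4 to 11 with single libraries left out (4 to 7 higher, 0 to 6 lower), and 3 genes were lower without AAV-Null 4 and AAV-Osm 5. Members of the lists changed were 0 in edgeR and 6 in limma-voom. The 6 were 1 for glycerol, 2 for carbonic anhydrases, 2 for capillary endothelium and 1 in the lymphatic and endocardial list. The causes were not tested. Signs of small log2 fold changes turned for several named genes. In limma-voom Aqp11 was at -0.20, Aqp8 at -0.017, Fam188b at 0.18 and Wnk1 at -0.039, and with total counts Aqp11 was at -0.00366. When AAV-Null 3 and AAV-Null 4 were left out, the values were -0.075 for Aqp11, 0.22 for Fam188b, -0.030 for Lpl and -0.076 for Wnk1. With AAV-Null 4 and AAV-Osm 5 both left out they were -0.093 for Aqp11, -0.078 for Aqp8, 0.19 for Fam188b, 0.00354 for Sgca and -0.012 for Wnk1. With single libraries left out, the ranges were -0.20 to 0.15 for Aqp11, -0.21 to 0.067 for Fam188b, -0.16 to 0.023 for Pecam1, -0.21 to 0.0095 for Sgca and -0.010 to 0.15 for Slc4a3. Depth limits Aqp4 and Aqp11 most, at 13 to 45 and 4 to 27 counts per library.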
